A study of Mus musculus with 18 samples.

Results

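Mouse mitochondrial DNA encodes 7 subunits of respiratory complex I, listed in the count table under the capital-letter symbols ND1, ND2, ND3, ND4, ND4L, ND5 and ND6. The members were taken by these symbols alone, with no rule on measured values, and they are 7 of 25731 symbols. The set was chosen with earlier results of these data known. The members were compared in heart RNA of 18 mice, labelled as adult male wild-type C57BL/6 animals, at day 7 after surgery, with 1 library per animal. SHAM held 6 animals with sham surgery, IR held 6 with myocardial ischemia-reperfusion, and IR+Decursin held 6 with ischemia-reperfusion and decursin, a coumarin of Angelica roots. The sources used here do not state the dose or route of decursin or the duration of ischemia. The comparisons ask how the injury moved these transcripts and whether they differed with decursin.

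Complex I takes electrons from NADH and passes them to ubiquinone, and it pumps protons across the inner mitochondrial membrane. The mitochondrially encoded subunits form the core of its membrane arm, while the nuclear subunits supply the NADH-oxidising matrix arm and the outer shell. The heart is rich in the complex, which is also known as a source of reactive oxygen species at reperfusion. Mitochondrial genes are transcribed as long precursors from both strands, and these are cut into mRNAs largely at the tRNAs between them. ND6 is the only mRNA of the light strand.

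Neighbouring members share bases, which bears on how reads can be assigned. All 7 symbols matched a GENCODE mouse transcript (release M21, GRCm38), and the deposited FPKM values imply the same 7 lengths, from 297 bases for ND4L to 1824 for ND5. ND4L and ND4 overlap by 7 bases on the same strand, and the last 14 bases of ND5 and ND6 are complementary on opposite strands. The ends are shown 5′ to 3′ with the shared bases in capitals.
ND4L, last bases: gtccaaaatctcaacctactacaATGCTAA
ND4, first bases: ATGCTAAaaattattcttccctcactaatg
ND5, last bases: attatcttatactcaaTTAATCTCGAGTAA
ND6, last bases: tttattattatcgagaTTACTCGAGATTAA
The bases also differ by strand. ND6 is annotated on the minus strand and its mRNA holds 28.1% G and 5.97% C, whereas the others, on the plus strand, hold 7.996% to 11.6% G and 22.1% to 29.97% C. The sources used here do not say whether the counting used strand, so reads of ND6 and of RNA from the opposite strand cannot be told apart.

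Some members also have near-identical nuclear copies, which make their counts uncertain. Each transcript was cut into all its 100-base windows, and the share of windows found without a mismatch in an annotated transcript outside the mitochondrial genome was counted. Sequence outside annotated transcripts was not searched, so 0% does not show that the nuclear genome holds no copy. ND1, ND5 and ND6 had 0% of windows copied, ND2 had 3.19%, ND4 60.8%, ND3 97.6% and ND4L 98.5%. The closest copy of ND4L, the pseudogene Gm10222 on chromosome 1, matches its first 294 bases with 0 differences. Gm28438, also on chromosome 1, matches the first 345 bases of ND3 with 1 difference (T3C, with T in ND3 and C in the copy, counted from the 5′ end). ND6 aligned over 519 bases to Gm11408 with 33 differences, and its longest identical run was 39 bases. Whole ND4L and the first 100 bases of ND3 and ND6 are shown to set a copied transcript beside a diverged one. Capitals mark bases that differ from the closest copy, and ND4L has none over the aligned 294 bases.
ND4L: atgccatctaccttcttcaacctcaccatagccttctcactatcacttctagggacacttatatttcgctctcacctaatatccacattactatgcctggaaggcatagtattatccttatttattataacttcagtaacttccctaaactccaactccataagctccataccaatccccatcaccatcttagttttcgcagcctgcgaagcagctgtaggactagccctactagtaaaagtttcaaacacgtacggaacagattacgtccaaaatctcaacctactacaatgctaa
ND3: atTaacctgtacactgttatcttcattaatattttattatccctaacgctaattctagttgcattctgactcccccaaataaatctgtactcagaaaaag
ND6: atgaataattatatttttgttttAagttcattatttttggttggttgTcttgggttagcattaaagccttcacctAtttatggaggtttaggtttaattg
The members have 11 aligned copies among annotated genes, and 0 of them are symbols of the count table. The names are those of GENCODE M21, and the annotation behind the count table is not stated. A missing name may thus be a difference between annotations. The sources used here also do not state how reads that match several places were treated.

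Libraries held 27.5 to 35.0 M counts. Xist, the RNA of the inactive X chromosome, had over 1000 counts in IR 3, IR 4 and IR+Decursin 2, against at most 8 in the others, so these 3 libraries go against the male sex in the labels. Whether libraries were exchanged between animals or groups was not tested. The gene model Gm26917 took 7.54% of IR+Decursin 6 and 0.915% of IR 1. The labels place each group in a batch of its own, so batch and group cannot be told apart. Cardiomyocyte markers (16 genes) summed to 94968 to 109677 counts per 1 M in SHAM, 51768 to 71064 in IR and 59700 to 98844 with IR+Decursin, and all 16 were detected in each group. Macrophage markers (14 genes) summed to 314 to 448, 1051 to 2158 and 449 to 1435. Fibroblast markers (10 genes) summed to 1527 to 1783, 8718 to 12517 and 1762 to 12101. The lowest fibroblast and macrophage sums of the IR+Decursin group and its highest cardiomyocyte sum were all in replicate 6, which lay within the SHAM range for fibroblast and cardiomyocyte markers although labelled IR+Decursin. Markers of lung and airway reached at most 0.539 counts per 1 M, with 2 of their 7 genes absent from the count table.

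Counts of all members together took 12.5 ± 0.759% of the library in SHAM (mean ± SD, n = 6), 9.61 ± 1.19% in IR and 9.70 ± 0.885% with IR+Decursin. The SHAM libraries ran from 11.05% to 13.23%, the IR libraries from 7.82% to 11.02% and the IR+Decursin libraries from 8.27% to 10.6%. Both injured groups thus lay below the SHAM range, IR only narrowly. How many genes separate in this way on raw library shares was not counted. ND1, ND2, ND4 and ND5 made up 98.1% to 99.5% of the members' counts in every library. Within the counts of all 13 mitochondrial mRNAs the members took 40.0 ± 1.11%, 39.4 ± 0.587% and 39.4 ± 1.53%, and these ranges overlap.

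Per length the reads assigned to the members differed by 2 orders of size. FPKM (fragments per kilobase of gene length and per 1 M counts) removes differences in length between genes. It does not correct for how reads that match several places were assigned. Over the 18 libraries ND1 was the most abundant member at 33367 ± 6253 FPKM, followed by ND2 at 22889 ± 3958, ND5 at 15571 ± 2158 and ND4 at 15176 ± 2273. ND1 exceeded ND2, and ND2 exceeded ND5, in 18 of 18 libraries. ND5 exceeded ND4 in only 12 of 18, namely 4 of 6 in SHAM, 6 of 6 in IR and 2 of 6 in IR+Decursin. The order of these neighbours thus did not hold across libraries, and its difference between groups was not tested. ND6 followed at 1253 ± 715 FPKM, 12.1-fold below ND4 and below it in 18 of 18 libraries. It exceeded ND4L in 16 of 18. ND4L was at 499 ± 320 and ND3 at 271 ± 109, and ND4L exceeded ND3 in 13 of 18 libraries.

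The low members did not share 1 copy status among annotated transcripts. The 5 mitochondrial mRNAs with over 97% of windows copied, ND3 and ND4L with COX2, COX3 and ATP6, had mean levels of 271 to 1287 FPKM. COX2 and COX3 encode subunits of cytochrome oxidase, and ATP6 a subunit of ATP synthase. The 6 mRNAs ND1, ND2, ND4, ND5, CYTB and COX1, with 0% to 60.8% copied, had mean levels of 15176 to 72264 FPKM, and no library of one set reached the range of the other. ND6 and ATP8, with 0% of windows copied in annotated transcripts, had 1253 and 154 FPKM, and ND4, with 60.8% copied, had 15176 FPKM. The search did not cover the rest of the nuclear genome, so it may have missed copies of ND6 or ATP8. The part of copies in these levels was not tested. Among the low transcripts, the level of ND3 or ND4L counts the reads that were assigned to the symbol, not necessarily all reads of the transcript.

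**Figure D1:**
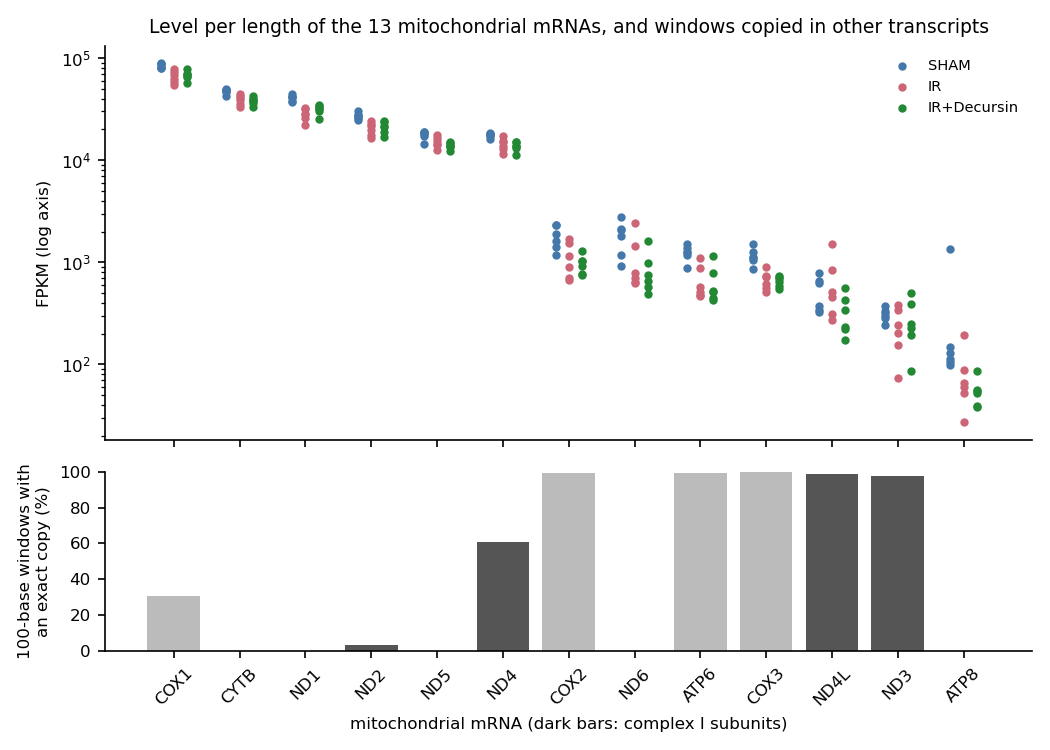
The upper plot gives FPKM on a log axis for the 13 mitochondrial mRNAs in each of 18 libraries, coloured by group, and the lower plot gives the share of 100-base windows with an exact copy in a transcript outside the mitochondrial genome (%). ND1, ND2, ND5 and ND4 lie at 11123 FPKM or above in every library, and ND6, ND4L and ND3 lie at 2774 FPKM or below.

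After ischemia-reperfusion the abundant members were lower than after sham surgery. By edgeR's quasi-likelihood test with Benjamini-Hochberg adjustment over 15088 genes, 5 of 7 members were lower in IR than in SHAM and 0 were higher, where 21.7% of all genes tested were lower. The 5 were ND1, ND2, ND4, ND5 and ND6, and the median log2 fold change of the 7 was -0.71, beside -0.00 over all genes. ND1 and ND2 were lower in all 6 IR libraries than in any SHAM library, where 11.6% of all genes were separated in this way. In bulk tissue, fewer cells of a type and less RNA per cell cannot be told apart, and the part of the marker changes was not tested. Beside the members, 16 of 16 cardiomyocyte markers were lower in IR, while 14 of 14 macrophage and 10 of 10 fibroblast markers were higher. In IR+Decursin against SHAM 7 of 16 cardiomyocyte markers passed the test as lower, and 14 of 14 macrophage and 9 of 10 fibroblast markers passed as higher. The markers that did not pass had fold changes of the same sign as the rest of their list.

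ND1 sits at the joint of the membrane arm and the matrix arm, where ubiquinone enters. In normalised counts per 1 M (CPM, with TMM factors) it ran from 38367 in SHAM over a median of 44637 to 47214, from 17499.9 over 23997 to 30559 in IR, and from 22355 over 28994 to 40366 in IR+Decursin. Its log2 fold change in IR against SHAM was -0.83 ± 0.14 (SE; edgeR, adjusted p = 0.000100), a level lower by 43.7%. IR 4 was the lowest IR library and IR 1 the highest, and neither reached the SHAM range. In IR+Decursin, 5 of 6 libraries lay below all SHAM libraries, and only replicate 6 lay within the SHAM range.

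ND2, ND4 and ND5 are the antiporter-like subunits of the proton-pumping membrane arm, with ND5 at its far end. ND2 had a lowest, median and highest value of 28196, 31205 and 36589 CPM in SHAM, 14409.9, 19436 and 23888 in IR, and 15942, 21610.2 and 26959 in IR+Decursin. No IR and no IR+Decursin library of ND2 reached the SHAM range. Its log2 fold change in IR against SHAM was -0.71 ± 0.14 (edgeR, adjusted p = 0.000330).

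ND4 had 23877, 27555 and 29795 CPM as its lowest, median and highest value in SHAM, 13320.3, 17893 and 24125 in IR, and 14035, 18186 and 24826 in IR+Decursin. In each injured group 1 library, IR 1 and IR+Decursin 6, lay above the lowest SHAM library, and the other 5 lay below every SHAM library. ND4 was lower in IR by a log2 fold change of -0.59 ± 0.14 (edgeR, adjusted p = 0.00181). ND5 had 28851, 37342 and 40824 CPM in SHAM, 19019.8, 25188 and 32193 in IR, and 21576, 24000.0 and 32296 in IR+Decursin, and the same 2 libraries were the highest of their groups. SHAM 5 was the lowest SHAM library for ND1, ND2, ND4, ND5 and ND6. ND5 was lower in IR by -0.53 ± 0.13 (edgeR, adjusted p = 0.00235).

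ND6, the light-strand mRNA, encodes a small membrane subunit next to ND4L, between ND1 and the pumping subunits. It had 522, 1151 and 1563 CPM as its lowest, median and highest value in SHAM, 293, 371 and 1041 in IR, and 241, 366 and 769 in IR+Decursin. The groups overlapped, with 4 of 6 IR libraries and 5 of 6 IR+Decursin libraries below every SHAM library. Its log2 fold change in IR against SHAM was -1.06 ± 0.36 (edgeR, adjusted p = 0.0218). This call was lost without IR 6 (-0.95, adjusted p = 0.0506), without SHAM 4 (-0.92, adjusted p = 0.0526) and with libraries scaled to their total count (-0.72, adjusted p = 0.130).

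ND3 carries a loop near the quinone site whose cysteine becomes exposed when the complex turns to its deactive form. Counts of ND3 were 92.0, 123 and 154 CPM at the lowest, median and highest in SHAM, 22.9, 75.6 and 122 in IR, and 27.2, 85.5 and 160.5 in IR+Decursin. The difference of IR from SHAM did not pass the test (-0.71 ± 0.39, edgeR, adjusted p = 0.146). Its point estimate was close to that of ND2, with a larger standard error. ND4L, a small subunit beside ND6, had 108, 168 and 253 CPM in SHAM, 73.5, 132 and 403 in IR, and 47.6, 78.1 and 202 in IR+Decursin. The highest ND4L value of all was in an IR library, and the IR range enclosed the SHAM range. Its fold change in IR against SHAM was 0.03 ± 0.43 (edgeR, adjusted p = 0.965), with a 95% interval from -0.90 to 0.95.

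The spread between animals differed between the members. Coefficients of variation in SHAM, IR and IR+Decursin were 8.23%, 19.0% and 20.2% for ND1, and those of ND2, ND4 and ND5 ran from 8.16% to 20.0%. They were 17.5%, 50.0% and 51.3% for ND3, 36.1%, 70.9% and 58.6% for ND4L, and 36.5%, 57.9% and 44.5% for ND6. Counting error alone, taken from each group's mean count, gives at most 1.95% for any member.

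**Figure D2:**
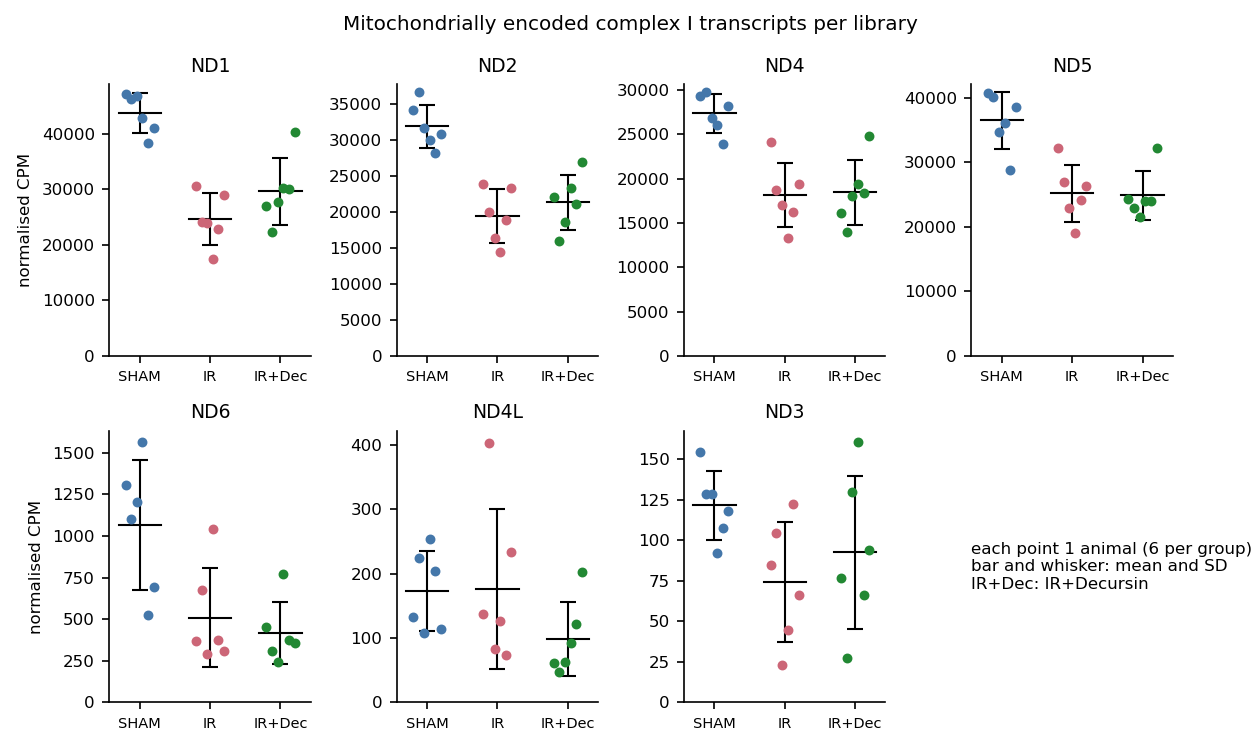
Each panel gives 1 member in normalised CPM by group, with 1 point per animal, the group mean as a bar and the SD as a whisker. The IR points of ND1 and ND2 lie below all SHAM points, while ND3, ND4L and ND6 overlap between groups.

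Animals with ischemia-reperfusion and decursin also had lower levels than SHAM. In IR+Decursin against SHAM 5 of 7 members were lower and 0 higher, where 11.8% of all genes tested were lower, and the members' median was -0.57, beside -0.00 over all genes. These are again ND1, ND2, ND4, ND5 and ND6, and both comparisons share the SHAM libraries. ND2 alone had all 6 libraries below every SHAM library, where 2.9% of all genes were separated in this way. The log2 fold changes were -0.56 ± 0.14 for ND1 (edgeR, adjusted p = 0.00613) and -0.58 ± 0.14 for ND2 (adjusted p = 0.00454). They were -0.57 ± 0.14 for ND4 (adjusted p = 0.00564), -0.55 ± 0.13 for ND5 (adjusted p = 0.00421) and -1.35 ± 0.36 for ND6 (adjusted p = 0.0104). ND3 (-0.39 ± 0.39, adjusted p = 0.476) and ND4L (-0.82 ± 0.44, adjusted p = 0.175) did not pass. Without IR+Decursin 6 the values were -0.67 for ND1, -0.66 for ND2, -0.67 for ND4, -0.64 for ND5 and -1.31 for ND6, and ND4L reached -1.16 (adjusted p = 0.0501).

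Between IR+Decursin and IR no member passed. The test called 0 of 7 members and 0% of the 15088 genes, although 2711 genes had an unadjusted p under 0.05. DESeq2 called 345 genes higher and 84 lower, and 0 members. At an unadjusted p under 0.05 edgeR had 0 members, and DESeq2 and limma with voom had 1 each. ND1 differed by 0.27 ± 0.14 (edgeR, adjusted p = 0.323), with a 95% interval from -0.04 to 0.57, and by 0.16 without IR+Decursin 6. The intervals were -0.16 to 0.43 for ND2, -0.28 to 0.32 for ND4, -0.30 to 0.26 for ND5 and -1.04 to 0.47 for ND6. They were -0.51 to 1.14 for ND3 and -1.78 to 0.09 for ND4L, so differences of more than 2-fold in these transcripts lie within what the data allow.

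The choice of scaling moves all of these values together. TMM factors were 0.840 to 0.921 in SHAM and 0.989 to 1.19 in IR, and 0.831 (replicate 6) to 1.12 in IR+Decursin. Scaling to the total count shifts the median of all genes by 0.31 in IR against SHAM, 0.22 in IR+Decursin against SHAM and -0.10 in IR+Decursin against IR. With it, the IR change was -0.53 for ND1, -0.41 for ND2, -0.29 for ND4 and -0.23 for ND5, and these 4 still passed. Relative to the all-gene median the sizes stay close to those under TMM. Without the 3 Xist libraries, IR against SHAM gave -0.72 for ND1, -0.57 for ND2, -0.48 for ND4, -0.42 for ND5 and -1.30 for ND6, and these 5 passed. In IR+Decursin against SHAM the same exclusion gave -0.49 for ND1 and left 5 members lower. Without IR 1 and IR+Decursin 6, the libraries rich in Gm26917, ND6 in IR against SHAM was -1.01 (adjusted p = 0.0513) and ND1, ND2, ND4 and ND5 passed.

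**Figure D3:**
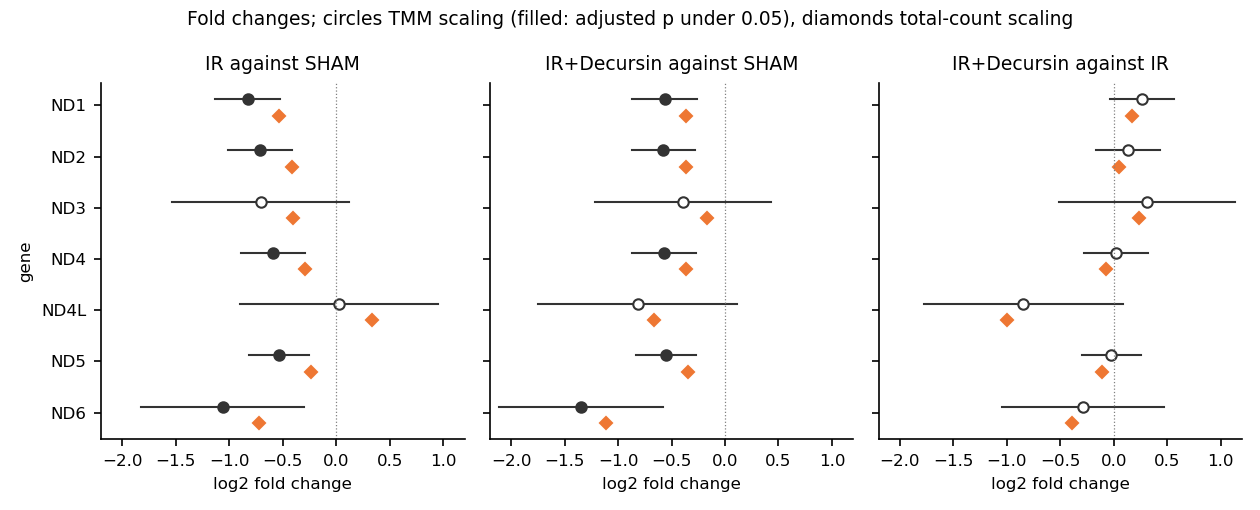
Log2 fold changes of the 7 members in 3 comparisons, with circles and 95% intervals under TMM scaling (filled where edgeR's adjusted p is under 0.05) and diamonds under total-count scaling. In the comparisons with SHAM, 5 circles are filled in each, and in IR+Decursin against IR none is.

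Each transcript was also taken as a share of the counts assigned to all 13 mitochondrial mRNAs, which is free of library scaling. The shares still depend on how reads that match nuclear copies were assigned, which is not stated. They need not give the make-up of the RNA itself. Group means were compared by exact permutation of all splits of 6 against 6 animals, two-sided and adjusted over 39 tests, and 0 of 7 members passed in any comparison. The smallest exact p that these splits allow is 0.00216. Adjusted over 39 tests, a single share at that p could not pass on its own, so 0 passing does not show unchanged shares. The unadjusted p was under 0.05 for ND1, ND4 and ND5 in IR against SHAM, for ND1 and ND4 in IR+Decursin against IR, and for ND6 in IR+Decursin against SHAM.

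Of the counts assigned to the 13 mitochondrial mRNAs, ND1 made up 12.5 ± 0.790% in SHAM, 10.98 ± 0.499% in IR and 12.3 ± 0.396% with IR+Decursin (n = 6 each). Its libraries ran from 11.4% over a median of 12.4% to 13.8% in SHAM, from 10.4% over 10.9% to 11.5% in IR, and from 11.7% over 12.3% to 12.8% in IR+Decursin. All 6 IR+Decursin libraries lay above all 6 IR libraries (exact permutation p = 0.00216, adjusted p = 0.0603). The shares of the other mitochondrial mRNAs overlapped between these groups. Shares were computed for the 13 mitochondrial mRNAs alone, so there is no rate over all genes to set beside this. In IR against SHAM 4 of 6 IR libraries lay below every SHAM library (exact permutation p = 0.00649, adjusted p = 0.0603). These differences therefore did not pass the adjustment. Without SHAM 6 the ND1 share passed in IR against SHAM. Without IR 6 it passed in both comparisons, and leaving out that library raised the count of members that pass to 3 in IR against SHAM and 1 in IR+Decursin against IR.

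ND5 took 10.4 ± 0.534% in SHAM, 11.3 ± 0.502% in IR and 10.4 ± 0.998% with IR+Decursin (IR against SHAM: exact permutation p = 0.0108, adjusted p = 0.0603). ND4 took 7.77 ± 0.0719%, 8.07 ± 0.265% and 7.63 ± 0.281% (IR against SHAM: exact permutation p = 0.0260, adjusted p = 0.0921). In both, 5 of 6 IR libraries lay above every SHAM library. The same held for CYTB, which is not a member. It took 17.4 ± 0.314% in SHAM, 18.4 ± 0.418% in IR and 17.7 ± 0.464% with IR+Decursin (IR against SHAM: exact permutation p = 0.00433, adjusted p = 0.0603). The share of COX3 was lower, at 0.290 ± 0.0542% in SHAM and 0.215 ± 0.0291% in IR (exact permutation p = 0.0108, adjusted p = 0.0603). ND1 counts per ND5 count were 1.21 ± 0.111 in SHAM, 0.977 ± 0.0806 in IR and 1.19 ± 0.124 with IR+Decursin. The ND1 to ND5 ratio thus lay below 1 on average in IR alone, with overlapping ranges. ND6 took 0.301 ± 0.110% in SHAM, 0.248 ± 0.193% in IR and 0.177 ± 0.0797% with IR+Decursin, and the difference of IR+Decursin from SHAM did not pass (exact permutation p = 0.0476, adjusted p = 0.143).

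**Figure D4:**
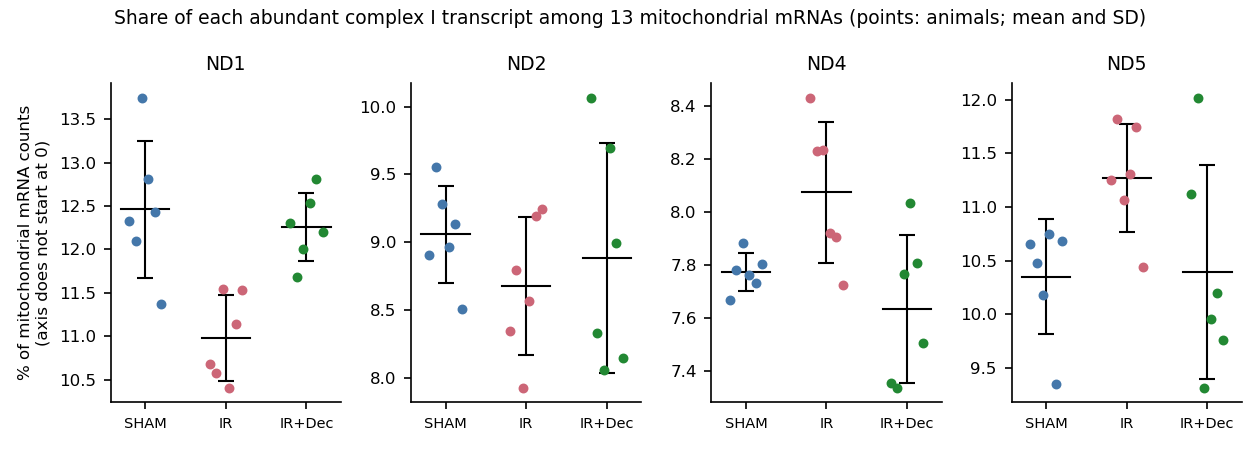
Share of ND1, ND2, ND4 and ND5 in the counts of the 13 mitochondrial mRNAs (%) by group, with 1 point per animal and the mean and SD. The 6 IR points of ND1, at most 11.5%, lie below the 6 IR+Decursin points, at least 11.7%, and the axes do not start at 0.

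The nuclear side of complex I was described with lists of its subunits and helpers. All 37 nuclear subunit genes were lower in IR than in SHAM, with a median log2 fold change of -0.70, and 36 of 37 were lower in IR+Decursin than in SHAM (median -0.49). The smallest adjusted p in IR against SHAM belonged to Ndufs4 (-0.85 ± 0.11, adjusted p = 1.07e-05) and Ndufs3 (-0.86 ± 0.11, adjusted p = 1.13e-05), both of the matrix arm. In IR+Decursin against IR 0 of 37 passed, with a median of 0.19, beside 0.02 for the 7 mitochondrial members. The members' counts per count of nuclear subunits were 10.02 ± 1.05 in SHAM, 10.1 ± 1.62 in IR and 9.54 ± 1.59 with IR+Decursin. The members' counts per count of cardiomyocyte markers were 1.40 ± 0.1001, 1.45 ± 0.291 and 1.23 ± 0.241. Both ratios overlapped between all groups, and the median log2 fold change of the cardiomyocyte markers in IR against SHAM was -0.67.

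Genes for building the complex and its transcripts moved in the same direction. Of 19 assembly factors, 19 were lower in IR against SHAM (median -0.63), among them Ndufaf1 (-0.92 ± 0.11, adjusted p = 4.90e-06), which helps assemble the membrane arm. In IR+Decursin against SHAM 17 of 19 were lower (median -0.43), and in IR+Decursin against IR 0 of 19 passed (median 0.25). Of 28 factors of mitochondrial DNA and RNA, 22 were lower in IR (median -0.50), including the transcription elongation factor Tefm (-0.73 ± 0.08, adjusted p = 4.26e-06) and the transcription and packaging factor Tfam (-0.55 ± 0.08, adjusted p = 1.40e-05). In IR+Decursin against SHAM 15 of 28 were lower (median -0.30), and in IR+Decursin against IR 0 of 28 passed, with Tfam at 0.36 ± 0.08 (edgeR, adjusted p = 0.0883). The other 6 mitochondrial mRNAs were all lower in IR (median -1.04) and in IR+Decursin (median -1.07) against SHAM. COX3 was lower by -1.07 ± 0.16 in IR (edgeR, adjusted p = 3.12e-05).

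Likeness to each member was measured as the root mean square difference in log2(CPM + 1), centred per gene, over the 18 libraries and 8588 genes with a mean of at least 10 CPM. ND4 was closest to CYTB, the cytochrome b mRNA (0.049), then to COX1 (0.067) and ND5 (0.111), against a median of 0.377 over all genes. ND5 was closest to CYTB (0.1002) and ND4, with the nuclear gene Trdn, a calcium-release protein of muscle, next (0.122). ND1 and ND2 were closest to each other (0.109), and COX1 was among the nearest 3 of both. ND3, ND4L and ND6 had no mitochondrial transcript among their nearest 3, and their nearest genes were Armc2 at 0.462, Retreg1 at 0.619 and Gm52092 at 0.440. The medians over all genes were 0.771, 0.814 and 0.836 for these members. The libraries share group and depth, so these distances describe the pattern and carry no test.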

How the data were processed

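Total RNA of 18 mouse hearts was sequenced with 1 library per animal, and groups came from the labels. The files deposited hold raw counts for each gene symbol and FPKM values of the same symbols. Per the submitters' processing notes, the tools were fastp, HISAT2 and HTSeq with the build GRCm39; the sources used here do not state versions, annotation release or strand setting. Deposited FPKM values served only for levels between genes and as an alternative.

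Counts were tested with edgeR 4.0.16 (R 4.3.3): filterByExpr by group (15088 of 25731 symbols, all 7 members among them), TMM factors, 1 robust quasi-likelihood fit of 18 libraries with 15 residual degrees of freedom, two-sided, Benjamini-Hochberg, called under 0.05. On counts simulated for IR against SHAM with 14929 genes, 98% of 200 genes changed 2-fold were recovered. The simulated spread followed the trend over all genes. Recovery at the larger spread of ND3, ND4L and ND6 was not simulated. Shares of the 13 mitochondrial mRNAs were tested by exact permutation. Libraries held 27.5 to 35.0 M counts. At the mean count of each group the counting error was at most 1.95% for any member, and single libraries below that mean have more. Transcript sequences came from GENCODE M21, an older build, so no coordinates are given. Copies were searched with BLAST 2.17.0.

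The members and lists were chosen with earlier results of these data known. All 7 members are named. From each list at most 4 genes with the smallest adjusted p are named, and for likeness the nearest 3 genes. Alternatives were DESeq2 1.42.0, limma 3.58.1 (voom, or trend on log2(FPKM + 1) and log2(FPKM + 0.1)), other scalings and filters, fits of the compared groups alone, scaling without mitochondrial and haemoglobin genes, a block for the replicate number, and fits without each library or the Xist libraries. Leaving out the libraries with over 100000 Gm26917 counts was chosen after seeing the data.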

Additional observations from a re-analysis of the deposited data

Results flagged for a closer look

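Within groups of 6, each member's CPM and share of mitochondrial mRNA counts was checked for 1 library far from the others (Dixon's criterion, 42 checks, of which chance flags about 1 in 20). ND5 in IR+Decursin 6 stood at 32296 CPM, against 21576 to 24369 in the other 5 libraries of that group. ND6 in IR 4 took 0.619% of the mitochondrial mRNA counts, against 0.123% to 0.296% in the other IR libraries. IR+Decursin 6 is also the library with 7.54% Gm26917 and the lowest TMM factor, and IR 4 is 1 of the 3 with Xist; their part in these values was not tested.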

How the results depend on the processing

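Counts of members lower than SHAM stayed at 4 or 5 of 7 in IR and at 5 of 7 in IR+Decursin under all 25 alternatives, and 0 passed between IR+Decursin and IR. ND6 in IR against SHAM also lost its call in limma-trend on log2(FPKM + 1) (-0.83, adjusted p = 0.0569) and log2(FPKM + 0.1) (-0.83, adjusted p = 0.0585). The replicate numbers do not pair animals by the labels, and same-numbered deviations correlated at -0.403 to 0.311; with the replicate number as a block 5 members were lower in IR, ND6 by -1.15, and no member's call changed. Direction turned only for differences that did not pass. ND4 in IR+Decursin against IR was -0.0696 with total-count scaling, -0.0198 with voom, -0.0214 without the Xist libraries, and -0.0648 on both FPKM scales. ND4L in IR against SHAM was -0.000939 without mitochondrial and haemoglobin genes in the scaling, -0.11 with the replicate block and -0.0684 with voom. Without the Xist libraries ND6 in IR+Decursin against IR was 0.0257, the ND3 share in IR against SHAM differed by 0.00602 points, and the ND5 share in IR+Decursin against SHAM by -0.28. Leaving out 1 library in turn gave ND4 (-0.0790 to 0.13), ND5 (-0.11 to 0.0688) and ND6 (-0.55 to 0.0494) in IR+Decursin against IR, and ND4L (-0.40 to 0.19) in IR against SHAM. For shares in points it gave, in IR+Decursin against SHAM, ND1 -0.42 to 0.0518, ND3 -0.00201 to 0.00846 and ND5 -0.28 to 0.26; in IR+Decursin against IR, ND2 -0.0347 to 0.37, ND3 -0.000845 to 0.0101 and ND6 -0.10 to 0.00228; and in IR against SHAM, ND3 -0.00645 to 0.00327. Members whose share passed numbered 0 to 3 in IR against SHAM and 0 to 1 in IR+Decursin against IR when 1 library was left out; with FPKM in place of counts 3 and 1 passed. The cause was not tested. Counting error at the group mean count was at most 1.95% for any member and group.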
